A study of Mus musculus and Rattus norvegicus with 2 samples.

Results

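miR-21, miR-22, miR-26a and miR-26b are broadly expressed microRNAs (miRNAs) that act on genes of cell growth and survival. They were followed here in small RNA of purified sperm from the caput, the first segment of the epididymis, where sperm leaving the testis begin to mature. The members were chosen by name, with their read counts in these libraries already known: every listed sequence whose matched miRNA entry, apart from the species prefix and the arm, was miR-21, miR-21a, miR-22, miR-26a or miR-26b. Rat miR-21 and mouse miR-21a are the same miRNA under their species' names and are called miR-21 below. The rule took 142 of 650877 distinct sequences with 12734 of 14652889 reads in rat, and 58 of 914516 distinct sequences with 2545 of 11760708 reads in mouse. In each library they fell under 7 names, of 377 miRNA names in rat and 391 in mouse.

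The series holds 1 library per species. The rat library is from Sprague Dawley animals, given as young adults of 450 g, and the mouse library from C57BL/6 animals aged 2 months, with no treatment or genetic change named for either. RNA of 18 to 45 nt was selected for sequencing, and whether animals were pooled is not given in the sources used here. With 1 library a species there is no replicate check and no test, and every interval below covers counting error at 95% only. In material of many cells, fewer cells of a type and less RNA per cell cannot be told apart.

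A miRNA is cut from a hairpin precursor, first by Drosha and then by Dicer, and 1 arm of the hairpin is usually kept as the guide. It finds its targets mainly through its seed, bases 2 to 8, and lowers their translation and stability. miR-21 is known from human tumours for repressing the growth suppressor PDCD4, and miR-22 represses the DNA demethylase Tet2 in mouse. The miR-26 family represses the histone methyltransferase EZH2 and cyclins and is mostly known for slowing growth, while its host genes Ctdspl, Ctdsp2 and Ctdsp1 encode phosphatases that act in the cell cycle.

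The mature sequences of the 4 leading arms are shown first, since the results turn on their seeds and on the last bases at their 3′ ends. They are from RefSeq on mouse GRCm38.p6, 5′ to 3′, with the seed in capitals.
miR-21-5p: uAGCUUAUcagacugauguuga
miR-22-3p: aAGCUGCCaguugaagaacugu
miR-26a-5p: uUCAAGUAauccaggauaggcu
miR-26b-5p: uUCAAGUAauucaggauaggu

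The arms fall into 3 seed groups. miR-26a-5p and miR-26b-5p share the seed UCAAGUA and are identical at 19 of the 21 positions that both have, differing by C11T and C21T in DNA letters (miR-26a base first, counted from 1 at the 5′ end). miR-26a-5p has 22 nt and miR-26b-5p 21 nt. The seeds AGCUUAU of miR-21-5p and AGCUGCC of miR-22-3p share their first 4 bases. miR-21c, the other mouse miRNA of the RefSeq table with the miR-21 seed, had 0 reads in both libraries by name, as did the near copy miR-21b.

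In mouse, the 4 miRNAs come from 5 hairpins, each inside a host gene. miR-21-5p lies at chr11:86584120-86584141 on the minus strand, where the Mir21a hairpin lies within an exon and the UTR of 1 GENCODE transcript of Vmp1, an autophagy gene. miR-22-3p lies at chr11:75463772-75463793 on the plus strand, in an exon of the non-coding gene Mir22hg. The other 3 hairpins are on the plus strand. miR-26a-5p is encoded at 2 places, chr9:119031811-119031832 in an intron of Ctdspl and chr10:126995543-126995564 in Ctdsp2, where the hairpin is intronic in 1 transcript and partly exonic in 2. miR-26b-5p lies at chr1:74394324-74394344 in an intron of Ctdsp1. The 2 miR-26a copies give the same mature sequence, so their reads cannot be told apart.

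By name, the 4 leading arms had more reads per 1000000 listed reads (rpm) in rat than in mouse. miR-22-3p had 5708 reads or 389.5 rpm (379.5 to 399.8) in rat, against 916 reads or 77.9 rpm (72.9 to 83.1) in mouse. miR-26a-5p had 4150 reads or 283 rpm (275 to 292) in rat, against 917 reads or 78.0 rpm (73.0 to 83.2) in mouse. miR-21-5p had 2716 reads or 185 rpm (178 to 192) in rat, against 637 reads or 54.2 rpm (50.04 to 58.5) in mouse. In rat miR-22-3p stood above miR-26a-5p and miR-26a-5p above miR-21-5p, with intervals that did not overlap, whereas in mouse miR-22-3p and miR-26a-5p did not differ beyond theirs. miR-26b-5p was far lower, with 133 reads or 9.08 rpm (7.60 to 10.8) in rat and 31 reads or 2.64 rpm (1.79 to 3.74) in mouse. Among all miRNA names of their library, miR-22-3p, miR-26a-5p, miR-21-5p and miR-26b-5p ranked 7, 9, 16 and 77 in rat, and 21, 20, 27 and 95 in mouse.

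The log2 ratio of rat over mouse was 2.32 (2.22 to 2.42) for miR-22-3p, a 5.0-fold higher level in rat. It was 1.86 (1.76 to 1.97) for miR-26a-5p, 1.77 (1.65 to 1.90) for miR-21-5p and 1.77 (1.21 to 2.40) for miR-26b-5p. All members together had 869 rpm in rat and 216 rpm in mouse, a log2 ratio of 2.01 (1.94 to 2.07). They made up 5.02% of reads under miRNA entries in rat and 0.437% in mouse, where miR-10a-5p and miR-10b-5p alone held 111485 and 382162 of the 582851 miRNA reads. In rat miR-10a-5p and miR-10b-5p held 106311 and 49 of 253717. The mouse total of miRNA reads thus rests largely on miR-10b-5p, a name with few rat reads. Shares of miRNA reads and ratios scaled to them carry this difference.

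**Figure D1:**
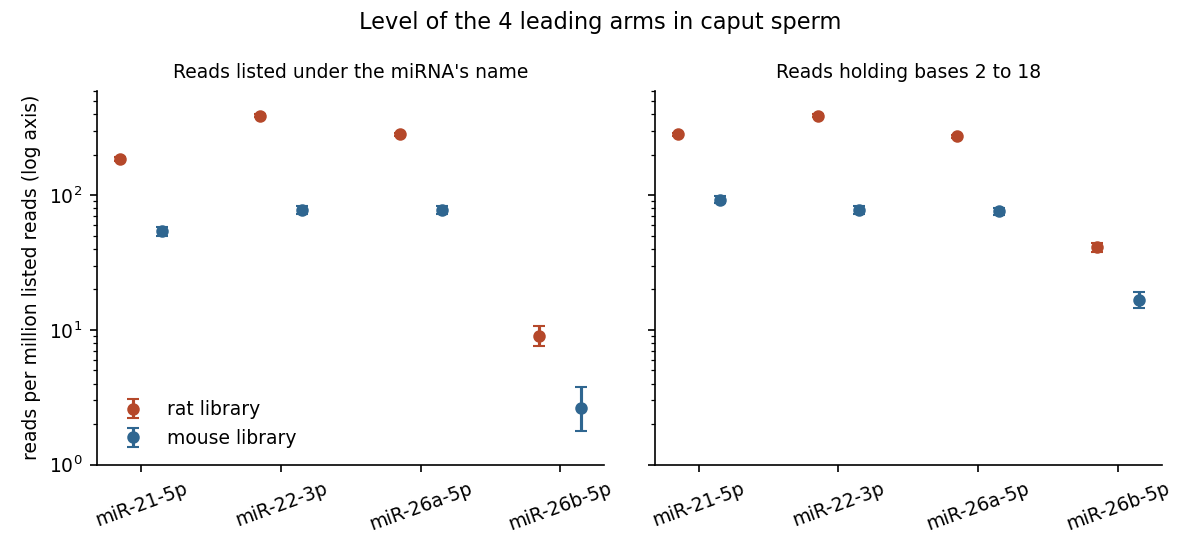
Level of the 4 leading arms in rpm (log axis), for reads listed under the miRNA's own name (left) and for all reads of up to 30 nt that hold bases 2 to 18 of the arm (right). Points are the 1 library of each species, rat left of mouse, and bars are exact Poisson 95% intervals. Each rat point lies above its mouse point, and miR-26b-5p moves up between the panels, to 41.1 rpm in rat and 16.8 rpm in mouse.

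All 4 leading arms were at least 2-fold higher in rat, as were 49 of the 94 miRNAs compared by name (52.1%), while 13 (13.8%) were at least 2-fold lower. The median log2 ratio of the 94 was 1.08. From the highest ratio down, miR-22-3p stood at place 23, miR-26a-5p at 32, miR-21-5p at 34 and miR-26b-5p at 35. Relative to that median, miR-22-3p stood at 1.24, miR-26a-5p at 0.78, miR-21-5p at 0.69 and miR-26b-5p at 0.68 on the log2 scale. These distances are the same under every scaling, while the ratios themselves shift together. Scaled to reads under miRNA entries every log2 ratio is 1.52 higher, and 78 miRNAs then pass 2-fold upward in rat and 5 downward. SNORD58, a small nucleolar RNA, was counted at 0 rat reads and 34.2% of mouse reads, so leaving it out changes the mouse total only. Each ratio is then 0.60 lower and the split is 38 against 17. The most abundant single sequence held 21.1% of reads in rat and 31.5% in mouse. With it left out of both totals the split is 45 against 14.

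**Figure D2:**
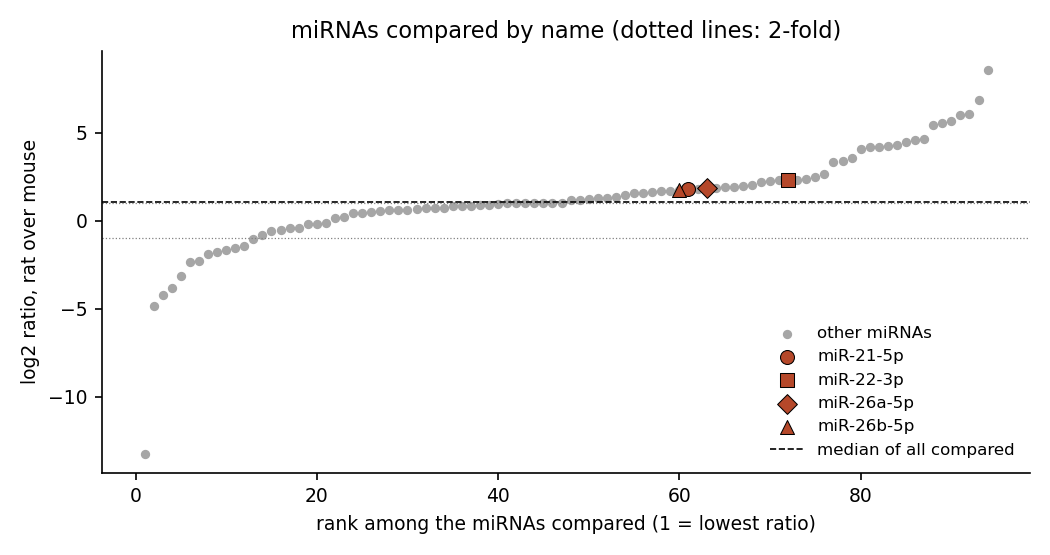
Log2 ratio of rat over mouse for the 94 miRNAs compared by name, ranked from the lowest. Grey points are other miRNAs, coloured symbols the 4 leading arms, the dashed line the median of 1.08 and the dotted lines 2-fold. The 4 arms lie together in the upper middle of the range, between 1.77 and 2.32.

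The miRNAs with the nearest ratios over the 2 libraries were taken as the closest in pattern, by the absolute difference of log2 ratios. For miR-22-3p these were miR-130a-3p at 2.33, miR-429 at 2.31 and miR-101a-3p at 2.36. For miR-26a-5p they were miR-30d-5p at 1.88, miR-27b-3p at 1.89 and miR-30e-5p at 1.92. miR-21-5p and miR-26b-5p were nearest to each other, followed for both by miR-425-5p at 1.80 and miR-27a-3p at 1.70. All these ratios are by name. Counted by sequence, as described below, miR-21-5p had 1.61 and miR-26b-5p 1.29.

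Names did not hold all reads of these miRNAs. Reads of up to 30 nt of any class that hold bases 2 to 18 of an arm, called its stem here, gave 4146 miR-21-5p reads in rat and 1091 in mouse. Of these, 34.97% (33.5 to 36.4) in rat and 41.6% (38.7 to 44.6) in mouse were listed under another entry, a GenBank microRNA record in rat and the Rfam family mir-21 in mouse. For miR-26a-5p the share listed elsewhere was 7.47% (6.68 to 8.33) of 4016 stem reads in rat and 14.1% (11.9 to 16.6) of 892 in mouse. For miR-22-3p it was 1.07% (0.818 to 1.37) of 5711 in rat and 1.09% (0.524 to 2.00) of 917 in mouse. The reads listed elsewhere were nearly all longer than the mature miRNA: 1449 longer miR-21-5p reads stand beside 1450 listed elsewhere in rat, and 452 beside 454 in mouse.

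miR-26b-5p was the most affected. Its stem was in 602 rat and 197 mouse reads, of which only 133 in rat and 31 in mouse carried its own name. In rat 392 of them were listed under miR-26a-5p, and in mouse 139. Nearly all of these were a single 22-nt read, which is shown beside the read of miR-26b-5p's own annotated length and the leading miR-26a-5p read, as deposited. Capitals mark the base after the annotated end of miR-26b-5p.
miR-26b-5p, 22 nt: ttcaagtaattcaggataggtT
miR-26b-5p, 21 nt: ttcaagtaattcaggataggt
miR-26a-5p, 22 nt: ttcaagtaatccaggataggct

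The 22-nt miR-26b-5p read had 390 reads in rat and 139 in mouse, against 113 in rat and 30 in mouse for the 21-nt read. The deposited mismatch list gives it the substitutions C11T and C21T against miR-26a-5p, the same changes that separate the 2 mature sequences. It occurs in full in the mouse Mir26b hairpin and in neither Mir26a hairpin. It made up 64.8% of miR-26b-5p stem reads in rat and 70.6% in mouse. Of all reads named miR-26a-5p, 9.45% (8.57 to 10.4) in rat and 15.2% (12.9 to 17.6) in mouse held the miR-26b stem.

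**Figure D3:**
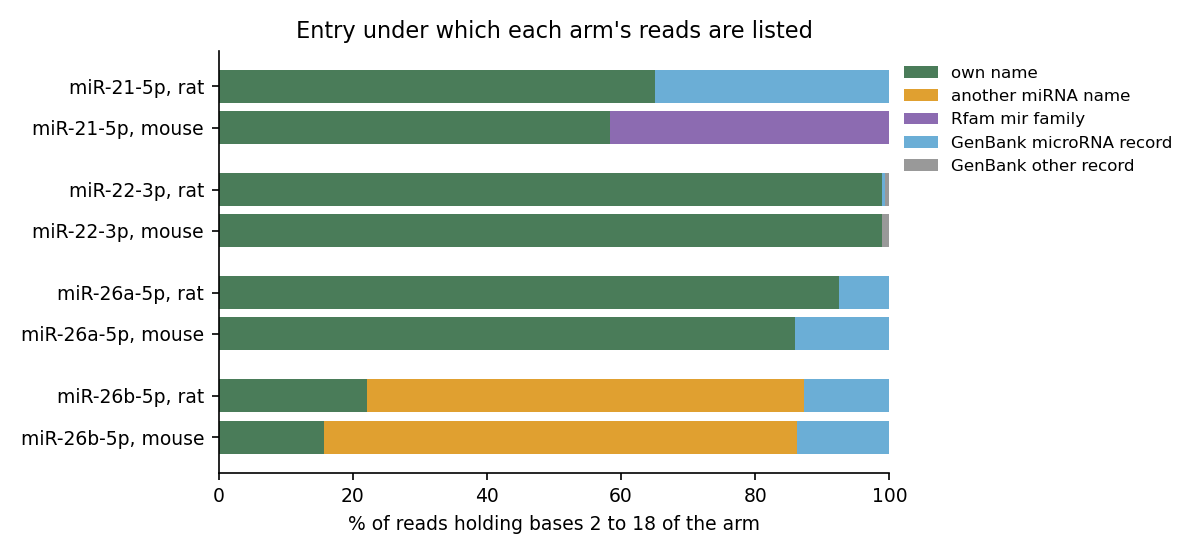
Entry under which the reads of each arm are listed, as a percentage of the reads of up to 30 nt that hold its bases 2 to 18, for rat and mouse. Most miR-22-3p reads carry their own name, whereas 77.9% of miR-26b-5p reads in rat and 84.3% in mouse do not.

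Counted by stem, miR-26b-5p reached 41.1 rpm (37.9 to 44.5) in rat and 16.8 rpm (14.5 to 19.3) in mouse, which was 4.53 times its level by name in rat and 6.35 times in mouse. Its log2 ratio was then 1.29 (1.06 to 1.53). Its share of all miR-26 reads was 13.0% (12.1 to 14.0) in rat and 18.1% (15.8 to 20.5) in mouse by stem, against 3.11% (2.61 to 3.67) in rat and 3.27% (2.23 to 4.61) in mouse by name. By stem the intervals of the 2 libraries did not overlap, and by name they did. miR-21-5p reached 283 rpm (274 to 292) in rat and 92.8 rpm (87.3 to 98.4) in mouse, with a log2 ratio of 1.61 (1.51 to 1.71). miR-26a-5p had 274 rpm (266 to 283) in rat and 75.8 rpm (70.9 to 81.0) in mouse, a log2 ratio of 1.85, and miR-22-3p had 389.8 rpm in rat and 78.0 rpm in mouse, a log2 ratio of 2.32.

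The order of the levels changed with the way of counting. By stem, miR-21-5p did not differ from miR-26a-5p beyond their intervals in rat, and in mouse it was the most abundant of the 4. Of the stem reads of the 4 arms, miR-22-3p took 39.5% (38.7 to 40.3) in rat and 29.6% (28.0 to 31.3) in mouse. miR-21-5p took 28.6% (27.9 to 29.4) in rat and 35.2% (33.5 to 36.9) in mouse. The share of miR-26a-5p, 27.7% (27.02 to 28.5) in rat and 28.8% (27.2 to 30.4) in mouse, did not differ beyond its intervals. By core sequence, bases 2 to 20, all 4 arms were likewise at least 2-fold higher in rat, with 43.1% of 102 miRNAs at least 2-fold higher and 16.7% lower.

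Among stem reads, between 99.6% and 100% of each arm began at the annotated first base in either library. A stem read must hold base 2, so reads that begin at base 3 or later are not counted, and this share does not cover them. The lowest value was that of mouse miR-21-5p, with 1087 of 1091 reads, and all 602 rat and 197 mouse miR-26b-5p reads began there. The 3′ ends differed between the arms in the same way in both libraries. miR-22-3p was the most uniform, with 94.9% (94.3 to 95.4) of its stem reads equal to the annotated sequence in rat and 95.1% (93.5 to 96.4) in mouse. The annotated miR-26a-5p sequence held 73.3% (71.9 to 74.6) in rat and 66.5% (63.3 to 69.6) in mouse, and that of miR-21-5p held 51.1% (49.5 to 52.6) in rat and 46.7% (43.7 to 49.7) in mouse. For miR-26b-5p it held only 18.8% (15.7 to 22.1) in rat and 15.2% (10.5 to 21.02) in mouse, where as in rat the 22-nt form led.

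**Figure D4:**
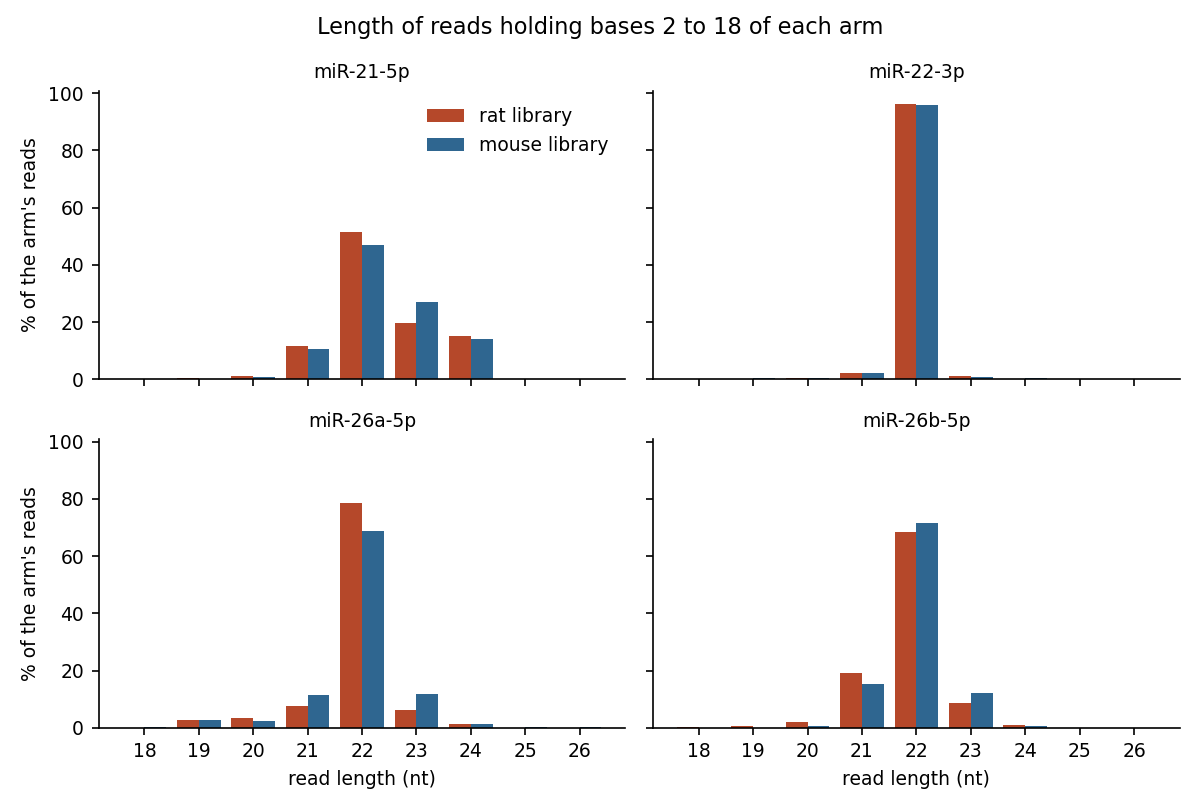
Length of the reads that hold bases 2 to 18 of each arm, as a percentage of the arm's reads, rat bars left of mouse bars. miR-22-3p stands almost wholly at 22 nt, while miR-21-5p spreads over 21 to 24 nt, with 23-nt reads at 19.7% in rat and 27.04% in mouse.

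Of the miR-21-5p stem reads that differed from the annotated sequence, the most numerous kind was longer and followed the hairpin. The annotated form and the leading longer forms are shown as deposited, with the bases after the annotated end in capitals.
22 nt: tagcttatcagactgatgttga
23 nt: tagcttatcagactgatgttgaC
24 nt: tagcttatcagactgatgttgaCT
24 nt, ending in A: tagcttatcagactgatgttgaCA

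The 22-nt form had 2117 reads in rat and 509 in mouse, and the 23-nt form 750 in rat and 289 in mouse. The 24-nt form ending in CT, which also follows the hairpin, had 444 rat and 116 mouse reads. Together, longer forms that follow the hairpin were 28.9% (27.5 to 30.3) of miR-21-5p stem reads in rat and 37.2% (34.3 to 40.2) in mouse. Ends that do not follow it were 6.49% (5.76 to 7.28) in rat and 4.12% (3.02 to 5.48) in mouse. The 24-nt form ending in CA, whose last base is not in the hairpin, had 115 rat and 27 mouse reads. Shorter forms, not shown, were 13.4% (12.4 to 14.5) in rat and 11.5% (9.71 to 13.6) in mouse. They were led by a 21-nt form with 474 reads in rat and 114 in mouse.

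Among 3′ ends that differ from the hairpin, A ends were the most frequent in miR-21-5p and U ends in miR-26a-5p, in both libraries. Bases that the hairpin does not encode can be added after Dicer cleavage by terminal nucleotidyl transferases. In human cells uridine addition to miR-26 by ZCCHC11 and adenosine addition to miR-21 by PAPD5 have been described. Whether the ends counted here arose in this way was not tested. For miR-26a-5p, ends made of U alone were 5.005% (4.35 to 5.73) of stem reads in rat and 10.2% (8.29 to 12.4) in mouse. Ends made of A alone were 2.56% (2.10 to 3.10) in rat and 5.16% (3.80 to 6.82) in mouse. Neither pair of intervals overlapped. Of the A ends, 49 of 103 in rat and 26 of 46 in mouse began before the annotated end, as did 12 of 201 U ends in rat and 3 of 91 in mouse. miR-26b-5p had U ends in 5.32% (3.66 to 7.42) of reads in rat and 8.63% (5.11 to 13.5) in mouse, and A ends in 6.15% (4.36 to 8.37) in rat and 3.55% (1.44 to 7.18) in mouse, with intervals that overlapped between the libraries.

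miR-21-5p had A ends in 4.92% (4.28 to 5.62) of reads in rat and 2.75% (1.86 to 3.90) in mouse, with intervals that did not overlap. U ends that differ from the hairpin were in only 8 of 4146 rat reads and 0 of 1091 mouse reads, which allows up to 3 reads. An added U that matches the next hairpin base is not counted, and the 24-nt form ending in CT had 444 rat and 116 mouse reads. The base after the annotated end is U in the hairpins of miR-22-3p and miR-26b-5p, but not in those of miR-26a-5p. The shares of U ends are therefore not an even comparison between the arms. miR-22-3p carried few of either kind, with A ends in 0.840% (0.620 to 1.11) of reads in rat and 0.763% (0.307 to 1.57) in mouse, and U ends in 1 rat read and 3 mouse reads. The most frequent U-ended read of miR-26a-5p and the most frequent A-ended read of miR-22-3p are shown with the added base in capitals.
miR-26a-5p with U (T in the read): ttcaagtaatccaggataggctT
miR-22-3p with A: aagctgccagttgaagaactgtA

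The miR-26a-5p read had 174 reads in rat and 82 in mouse, or 4.33% of its stem reads in rat and 9.19% in mouse. The miR-22-3p read had 38 reads in rat and 7 in mouse, or 0.665% of its stem reads in rat and 0.763% in mouse. All 976 rat and 228 mouse reads with such ends also carry a mismatch at the first differing base in the deposited mismatch list.

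**Figure D5:**
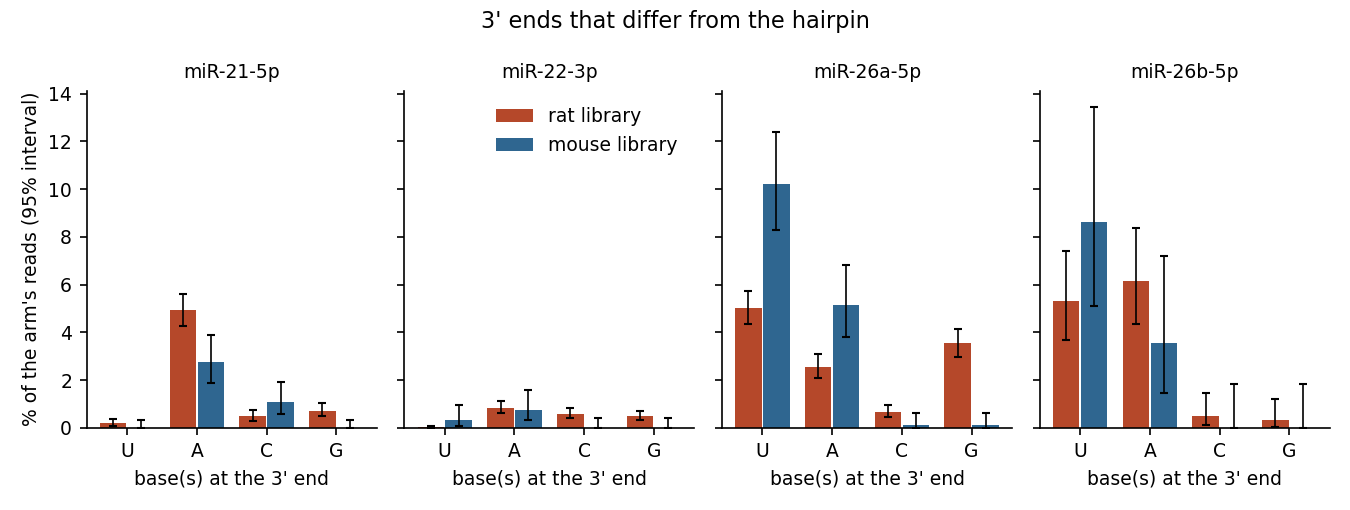
Reads whose 3′ end differs from the hairpin, by the base or bases that make up the differing end, as a percentage of each arm's stem reads with exact 95% binomial intervals. Rat bars stand left of mouse bars. A ends lead in miR-21-5p and U ends in miR-26a-5p, in both libraries. Ends in G are at 3.54% of miR-26a-5p reads in rat against 0.112% in mouse.

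Some 3′ ends in G or C were nearly all from the rat library. The miR-26a-5p read with T22G against the mature sequence had 141 reads in rat and 1 in mouse, or 3.51% of stem reads in rat and 0.112% in mouse. miR-22-3p had 33 rat reads with T22C and 26 with T22G, and 0 mouse reads of either. Under miRNA entries other than these miRNAs, 239497 rat and 580086 mouse reads were counted. A single mismatch at the last base was in 4.61% (4.53 to 4.70) of these rat and 1.72% (1.69 to 1.76) of these mouse reads. Of the reads with such a mismatch, 745 of 11043 in rat and 895 of 9985 in mouse changed to G. To A there were 1746 in rat and 4910 in mouse, and to T 8249 in rat and 3972 in mouse. For the members, a single last-base mismatch was in 2.54% (2.28 to 2.83) of rat and 1.06% (0.700 to 1.54) of mouse reads. Of these, 184 of 324 in rat and 1 of 27 in mouse were to G, and 64 in rat and 22 in mouse to A. The part of such library-wide mismatches in the ends of the members was not tested.

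The opposite arms were rare and below the minimum of 100 reads over both libraries. miR-21-3p had 16 reads or 1.09 rpm (0.624 to 1.77) in rat and 33 reads or 2.81 rpm (1.93 to 3.94) in mouse. Its log2 ratio was -1.34 (-2.32 to -0.46), opposite in sign to that of miR-21-5p, but 0.18 when scaled to reads under miRNA entries. Within a library, where scaling has no part, miR-21-3p was 0.586% (0.335 to 0.949) of named miR-21 reads in rat and 4.93% (3.41 to 6.85) in mouse, and by stem 0.456% (0.275 to 0.711) in rat and 2.85% (1.96 to 3.999) in mouse. miR-22-5p had 9 reads in rat and 10 in mouse, which was 0.157% (0.0720 to 0.299) of named miR-22 reads in rat and 1.08% (0.519 to 1.98) in mouse. miR-26b-3p had 2 reads in rat and 1 in mouse. The opposite arms of both miR-26a hairpins, miR-26a-1-3p and miR-26a-2-3p, had 0 stem reads in both libraries, which allows up to 0.205 rpm in rat and 0.255 rpm in mouse.

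Some reads spanned a whole miR-21 precursor. A 60-nt read from the first base of miR-21-5p to the last base of miR-21-3p, with 22 nt of each arm and 16 nt between them, had 4 reads in rat and 3 in mouse. A precursor with about these ends is what Drosha leaves for Dicer to cut. The read is longer than the 45 nt selected, and the libraries listed 7321 rat and 15099 mouse reads of 60 nt. In its deposited match the precursor read had 0 mismatches in rat and 2 in mouse. No read spanning both arms was listed for miR-22 or miR-26. No read of any length held the antisense of a stem.

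In mouse, fragments of the host transcripts were listed as well. Outside the hairpins, reads that match GENCODE transcripts of a single host gene over their whole length numbered 387 for Vmp1, 149 for Ctdsp1, 124 for Ctdsp2, 122 for Ctdspl and 25 for Mir22hg, or 32.9, 12.7, 10.5, 10.4 and 2.13 rpm. An 18-nt sequence supplied 152 of the Vmp1 reads. Mir22hg had the fewest fragments of the 5, and Vmp1 the most. Rat host genes were not analysed here.

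Markers of cell types moved between the libraries as well. The 3 germ cell miRNAs, miR-34b, miR-34c and miR-449a, were all listed and summed by name to 900.3 rpm in rat and 14.2 rpm in mouse. The arms of miR-34c differed. miR-34c-5p had 7364 reads in rat and 50 in mouse, a log2 ratio of 6.87. miR-34c-3p had 166 reads in rat and 70 in mouse, a log2 ratio of 0.92. The 6 epithelial miRNAs were all listed, at 370.4 rpm in rat and 223 rpm in mouse, and the 4 of muscle at 1855 rpm in rat and 847 rpm in mouse, nearly all of it miR-143. Not every marker followed its sum: the epithelial miR-200c had 2.05 rpm in rat and 59.6 rpm in mouse, and the muscle miR-145 had 9.90 rpm in rat and 14.2 rpm in mouse. The muscle miR-1 had 1 read in rat and 5 in mouse. The 5 leukocyte miRNAs summed to 26.4 rpm in rat and 4.51 rpm in mouse, where miR-223 and miR-155 were at 0. The 3 of red blood cells summed to 5.53 rpm in rat and 7.14 rpm in mouse, but did not move together. miR-451 had 4.64 rpm in rat and 0.340 rpm in mouse, and miR-144 0.887 rpm in rat and 0 in mouse. miR-486 was at 0 in rat and 6.80 rpm in mouse. The endothelial miR-126 had 26.96 rpm in rat and 15.7 rpm in mouse. miR-21, miR-22 and miR-26 are broadly expressed, and the part of cell makeup in their ratios was not tested.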

How the data were processed

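The deposited tables give whole, unnormalised read counts per distinct sequence, each with 1 matched entry and at most 2 mismatches, per the file headers. Bowtie 0.12.7, mm9 and rn5 are named in the submitters' processing notes, with no role. The sources used here do not give adapter trimming or filters. The labels put 1 library in each species. A closing line of the mouse table, the sum of its counts, was left out. Listed sequences were 51.3% of the sequence numbers in rat and 40.6% in mouse, and the rest were not analysed here. An adapter or sequencing error at the 3′ end would read as an added base.

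Counts were scaled to listed reads. Log2 ratios used a pseudocount of 0.5 read, and miRNAs with reads in both libraries and at least 100 over both were compared. Names were paired as written (188), with the letter a added (18) or with a missing arm (11). Levels have exact Poisson, shares exact Clopper-Pearson and ratios exact conditional binomial intervals. Reads are PCR products without molecular identifiers, so these cover counting error only. A count of 0 was taken as allowing 3. The stem match was added after the data were seen. 3′ ends were compared with the RefSeq mouse hairpins (4 of 4 leading arms matched). The code was tested on simulated data (Python 3.11.15, scipy 1.17.1).

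Members and lists were chosen with earlier results of these data known. Every member arm was named, with the 3 nearest ratios for each leading arm. A further list of miRNAs is not reported here. Alternatives covered the total, the match by core sequence or stem, mismatches, length, distinct sequences, pseudocount and minimum.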

Additional observations from a re-analysis of the deposited data

Results flagged for a closer look

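Reads of these miRNAs stood outside the entries that carry their names, above the 3 reads that a count of 0 allows, and so were missed by any count by name. In rat they numbered 1450 for miR-21-5p, 61 for miR-22-3p, 300 for miR-26a-5p and 469 for miR-26b-5p. In mouse they numbered 454 for miR-21-5p, 10 for miR-22-3p, 126 for miR-26a-5p and 166 for miR-26b-5p. Of these, 392 rat and 139 mouse miR-26b-5p reads were listed under miR-26a-5p, and 0 reads of the other 3 arms were listed under another miRNA name.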

How the results depend on the processing

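The 36 alternative log2 ratios of the 4 leading arms all stayed above 1, from 1.16 to 3.84. Values below are in the order miR-21-5p, miR-22-3p, miR-26a-5p, miR-26b-5p and all members summed. Scaled to miRNA reads they were 3.29, 3.84, 3.38, 3.28 and 3.52, and with the total without SNORD58 1.17, 1.72, 1.26, 1.16 and 1.40. With the total without the most abundant sequence they were 1.57, 2.12, 1.66, 1.56 and 1.80. Over distinct sequences they were 2.46, 2.04, 1.67, 2.08 and 1.78. By core sequence, miR-21-5p had 1.60 and the sum 1.90, and by stem 1.61 and 1.89. miR-21-3p turned to 0.18 when scaled to miRNA reads and to 0.15 over distinct sequences.

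The counts of miRNAs past 2-fold upward and downward in rat were 49 and 13 of the 94 compared, and 78 and 5 of 94 scaled to miRNA reads. The number compared changed with the other settings. Over distinct sequences, with a minimum of 10 of them, the counts were 69 and 4 of 102. Without a minimum they were 81 and 40 of 217, and with a minimum of 1000 reads 13 and 7 of 30. The leading read's share by name was 77.9% in rat and 79.9% in mouse for miR-21-5p, and by core sequence 51.4% and 46.8%, by stem 51.1% and 46.7%. For miR-26b-5p it was 85.0% and 96.8% by name, where the 21-nt read led. The 22-nt read led by core sequence, with 65.4% and 70.6%, and by stem, with 64.8% and 70.6%. For miR-26a-5p it was 70.9% and 64.7% by name, 84.4% and 80.4% with 0 mismatches and 75.7% and 68.7% by core sequence, and in rat 73.05% in reads of 20 to 24 nt and 73.3% by stem. For miR-22-3p it was 94.9% and 95.2% by name, and 97.2% and 96.8% with 0 mismatches. The cause was not tested, beyond the reads each alternative leaves out or adds. No paired analysis was possible because there is 1 library per species, so no replicate could be left out. Low counts limit the opposite arms and mouse miR-26b-5p.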
